A study of Mus musculus with 12 samples.

Results

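The 10 genes described here encode Eph receptors and ephrins and were taken by symbol from a table of raw counts: Epha1, Epha2, Epha4, Ephb2, Ephb3, Ephb4, Ephb6, Efna1, Efnb1 and Efnb2. All 10 were found among the 23337 gene symbols, and all 10 were among the 12406 genes that passed the filter on low counts. The counts came from RNA sequencing of NU1, a line of normal mouse urothelial cells that became immortal during serial passaging, grown with EGF. The design had 4 groups of 3 libraries. Proliferating control cells carried the hairpin shNT (genotype WT in the labels), and proliferating knockdown cells carried the hairpin sh4 against Stag2 (Stag2-KD), which encodes a cohesin subunit. Quiescent control and quiescent knockdown cells carried the same hairpins, were grown to confluence, then kept with 1 µM rosiglitazone, a PPAR gamma agonist, plus 0.5 µM erlotinib, an inhibitor of the EGF receptor kinase. They carry day 7 in their labels. Confluence, both drugs and time in culture therefore cannot be told apart in the quiescent state. The knockdown rests on 1 hairpin delivered by lentivirus in 1 cell line. Every group had 1 library from each of experiments 5, 7 and 9, and each experiment was a batch of its own in the labels. Nothing else in the labels says that replicates came from separate cultures, so p-values measure the spread between these libraries.

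Eph receptors are the largest family of receptor tyrosine kinases, and their ligands, the ephrins, are themselves anchored in the membrane of the neighbouring cell. Ephrin-A proteins hang on a lipid anchor and ephrin-B proteins cross the membrane, so that binding can signal into both cells at a contact. EphA receptors mainly bind ephrin-A and EphB receptors mainly ephrin-B, while EphA4 also binds ephrin-B ligands. In epithelia this system is known for contact-dependent control of adhesion, cell sorting and boundary formation.

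Library totals ran from 14524429 to 21987539 counts. Levels are CPM, a gene's count over the library total after TMM scaling, and a level per exon length is CPM divided by the kilobases of exon annotated for the gene. SDs, SEs and intervals rest on the spread between libraries, so they do not cover amplification that acted alike in all of them. PCR reads are not independent molecules. Stag2 was lower in both knockdown groups (133 ± 17.4 against 27.6 ± 4.96 CPM in proliferating and 121 ± 11.3 against 12.1 ± 2.95 CPM in quiescent cells, SD, n = 3). The knockdown groups did not overlap in Stag2, at 24.6 to 33.3 CPM when proliferating and 9.43 to 15.3 CPM when quiescent. Knockdown effects compared between states therefore rest on unequal Stag2 levels, and the part of this in any member was not tested. Mki67, a marker of cycling cells, was at 185 to 225 CPM in proliferating control, 110 to 264 CPM in proliferating knockdown, 0.552 to 7.93 CPM in quiescent control and 5.49 to 33.6 CPM in quiescent knockdown libraries. The epithelial genes Krt8 and Epcam were high in every library (at least 3493 and 391 CPM). Krt7, Krt18, Krt19 and Cdh1 were at least at 1480, 2607, 1125 and 652 CPM. Of the urothelial transcription factor genes, Elf3 was at 77.3 to 518, Gata3 at 26.5 to 118 and Foxa1 at 9.49 to 84.8 CPM. Grhl3 reached at most 2.64 CPM. The basal gene Trp63 had no count, and Krt5 and Krt14 reached at most 6.60 and 10.6 CPM. Upk1a, Upk1b, Upk2 and Upk3a reached at most 3.94 CPM. Endothelial markers, relevant because Efnb2 and Ephb4 are best known from vessels, were summed at no more than 0.820 CPM in any library. The summed fibroblast and smooth muscle lists reached 2.27 and 0.895 CPM. The leukocyte list was carried by Csf1r and was summed at 15.6 to 33.3 CPM in proliferating control, 26.3 to 55.6 CPM in proliferating knockdown, 39.7 to 61.9 CPM in quiescent control and 110 to 170 CPM in quiescent knockdown libraries, while Cd68 was at 1.55 to 9.36 CPM in every library, Ptprc, Itgam, Cd79a and Lyz2 reached at most 0.410 CPM and Cd3e was at 0.

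Epha2 had the highest level per exon length of the 10 genes in proliferating control cells, at 71.4 ± 8.57 CPM per kb (SD, n = 3), and its libraries did not overlap those of any other member. Efnb2, Epha1 and Ephb4 followed at 31.6 ± 11.2, 29.1 ± 5.94 and 28.7 ± 5.92 CPM per kb, and these neighbours did not differ beyond their spread. Efnb1 stood at 21.5 ± 4.27 CPM per kb and overlapped Ephb4. Epha4 and Efna1, at 11.9 ± 1.48 and 11.9 ± 2.03 CPM per kb, were not separated from each other, and neither were Ephb3 and Ephb2, at 5.89 ± 1.05 and 5.11 ± 3.43 CPM per kb. Ephb6, which encodes a receptor without kinase activity, was lowest at 1.02 ± 0.623 CPM per kb. In quiescent control cells Efnb2 came first at 56.5 ± 9.86 CPM per kb, above all libraries of Epha2 at 39.4 ± 9.21 CPM per kb. In quiescent knockdown cells the same pair, at 46.9 ± 5.30 and 39.0 ± 8.63 CPM per kb, overlapped. The plot of level per exon length shows this exchange of the leading receptor and ligand.

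**Figure D1:**
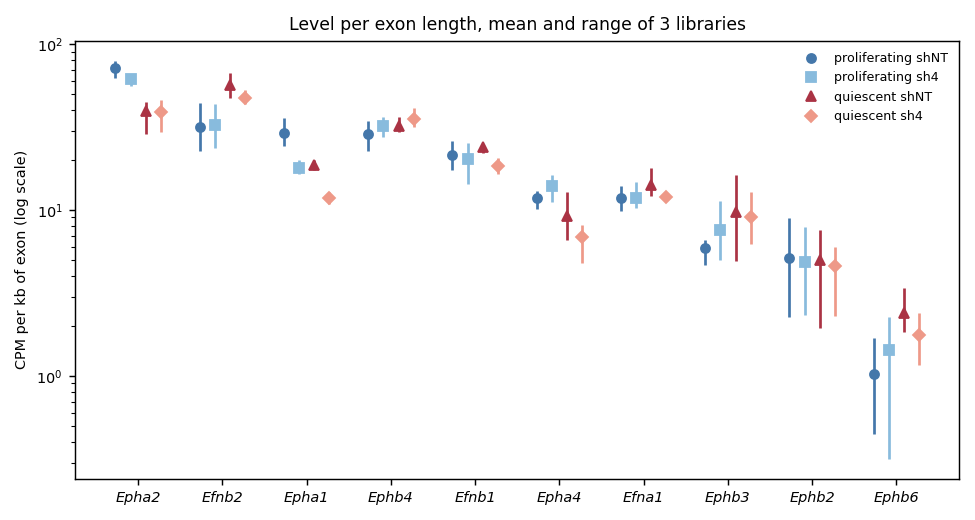
Level of each gene as CPM per kb of exon (log axis), with 1 symbol for the mean and 1 bar for the range of the 3 libraries in each of the 4 groups. Epha2 leads in proliferating control cells at 71.4 CPM per kb and Efnb2 in quiescent control cells at 56.5 CPM per kb, while Ephb6 is lowest in all 4 groups.

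Of the 12 other genes of the family, 5 passed the filter on low counts. Efna4 and Efna5, ephrin-A ligands, were at 22.2 ± 6.74 and 32.7 ± 4.98 CPM in proliferating control cells (SD, n = 3). Epha7 was at 6.53 ± 2.94 CPM, Efna3 at 1.21 ± 0.287 CPM and Efnb3 at 0.874 ± 0.185 CPM. Epha10 and Ephb1 had no count in any library, and Epha3, Epha5, Epha6 and Epha8 had at most 1 count in a library. Efna2 had at most 7 counts. Summed over all 22 family genes per exon length, EphA receptors were at 113 ± 6.18 CPM per kb in proliferating control and 67.9 ± 5.03 CPM per kb in quiescent control cells, with no overlap. Ephrin-B ligands were at 53.4 ± 15.4 and 80.7 ± 8.58 CPM per kb in the same groups, again with no overlap. Efnb2 alone was at 31.6 and 56.5 CPM per kb there. EphB receptors, at 40.7 ± 9.76 and 49.2 ± 6.45 CPM per kb, and ephrin-A ligands, at 34.4 ± 4.96 and 41.7 ± 3.69 CPM per kb, did overlap. In knockdown cells the EphA sums, at 94.2 ± 4.25 and 58.7 ± 9.70 CPM per kb, did not overlap between states. The ephrin-B sums, at 52.9 ± 15.2 and 65.6 ± 5.23 CPM per kb, overlapped in knockdown cells. These sums were not tested.

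The state comparison in control cells moved 3 of the 10 genes past the threshold, an edgeR adjusted p of 0.05: Epha1 and Epha2 fell and Efnb2 rose. Of all tested genes 20.0% passed, 8.33% higher and 11.7% lower, so the share among the members was close to the background. The control groups did not overlap in 4 of the 10 genes, as in 35.6% of all genes. The members' median log2 fold change was 0.15, beside 0.0047 over all tested genes. In knockdown cells Epha1, Epha2 and Epha4 fell with quiescence and no member rose, where 18.4% of all genes passed, 7.59% higher and 10.8% lower. The knockdown groups did not overlap in 4 of the 10 genes, as in 37.2% of all genes. The median of the members was -0.03 there, beside 0.0045 over all genes. With a term for the experiment the control comparison called 5 members, 3 higher and 2 lower, where 35.3% of all genes passed (16.8% higher and 18.5% lower). The knockdown comparison then called 3 lower, where 33.0% of all genes passed (15.9% higher and 17.2% lower). In bulk RNA, fewer cells with a transcript and less of it per cell cannot be told apart.

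The 4 genes called in either state comparison without the experiment term are shown with the 250 bases before their RefSeq transcription start (build GRCm38.p6), since the results on quiescence without the experiment term turn on them. All 10 members matched the RefSeq promoter table by symbol, 9 with 1 window and Efna1 with more. Capitals mark matches on either strand to the GC box GGGCGG, the TEAD motif GGAATG or the cell-cycle homology region TTTGAA.
Epha1, chr6:42373269-42373518, minus strand: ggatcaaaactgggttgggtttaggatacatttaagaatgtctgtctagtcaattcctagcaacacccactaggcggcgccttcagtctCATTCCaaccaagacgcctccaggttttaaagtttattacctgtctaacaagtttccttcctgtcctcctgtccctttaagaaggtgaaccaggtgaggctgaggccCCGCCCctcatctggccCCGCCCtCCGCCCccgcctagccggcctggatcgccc
Epha2, chr4:141300971-141301220, plus strand: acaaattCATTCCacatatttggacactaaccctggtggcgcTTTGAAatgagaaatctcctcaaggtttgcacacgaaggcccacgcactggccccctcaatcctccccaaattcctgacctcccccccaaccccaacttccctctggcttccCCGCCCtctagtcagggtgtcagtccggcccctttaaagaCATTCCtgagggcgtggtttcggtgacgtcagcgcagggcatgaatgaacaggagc
Epha4, chr1:77515089-77515338, minus strand: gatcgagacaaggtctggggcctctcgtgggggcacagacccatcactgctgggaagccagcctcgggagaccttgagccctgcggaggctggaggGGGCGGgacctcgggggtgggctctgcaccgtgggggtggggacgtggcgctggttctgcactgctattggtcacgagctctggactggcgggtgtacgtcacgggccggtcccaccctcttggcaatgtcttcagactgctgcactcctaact
Efnb2, chr8:8661243-8661492, minus strand: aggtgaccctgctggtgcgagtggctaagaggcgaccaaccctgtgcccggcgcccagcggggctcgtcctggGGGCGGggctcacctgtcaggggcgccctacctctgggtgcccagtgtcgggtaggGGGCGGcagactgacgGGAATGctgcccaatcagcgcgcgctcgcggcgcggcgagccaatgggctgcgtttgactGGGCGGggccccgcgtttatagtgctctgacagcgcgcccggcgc
Epha1 held 3 GC boxes and 1 TEAD motif, Epha2 1 GC box, 2 TEAD motifs and 1 cell-cycle homology region, Epha4 1 GC box, and Efnb2 3 GC boxes and 1 TEAD motif. The GC box was not limited to the genes printed: Ephb3 held 2, Ephb4 4, Ephb6 5 and the windows of Efna1 1 and 2. Ephb2 and Efnb1 held none. Among 32851 windows of the same length the GC box was found in 32.7%, the TEAD motif in 12.6% and the cell-cycle homology region in 16.0%. The members' windows were 54.4 to 76.8% G and C, and these shares were not matched for that content. The AP-1 motif TGANTCA (6.75% of windows), the E2F motif TTTNNCGC (4.28%) and the PPAR response element (0.0335%) had no match in the windows of any of the 10 genes, where no match says only that the letters are not in this stretch. No matches of different motifs overlapped in the sequences printed, and a match is a string of letters, not a bound site.

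Epha2, at chr4:141301240-141329384 (GRCm38, plus strand), encodes a receptor abundant in epithelia. Its levels in experiments 5, 7 and 9 were 338, 371 and 291 CPM in proliferating control and 208, 210 and 135 CPM in quiescent control libraries. In knockdown cells they were 293, 309 and 259 CPM when proliferating and 195, 215 and 137 CPM when quiescent. Every quiescent library lay below every proliferating one, and experiment 9 was lowest in all 4 groups. With quiescence Epha2 fell by 0.86 on the log2 scale (SE 0.20, edgeR adjusted p 0.0134) in control and by 0.65 (SE 0.20, edgeR adjusted p 0.0450) in knockdown cells. The knockdown itself gave -0.22 (95% interval -0.66 to 0.23) in proliferating and -0.01 (-0.46 to 0.43) in quiescent cells, neither past the threshold. The call in control cells was lost without the proliferating control of experiment 7 (edgeR adjusted p 0.0559). The call in knockdown cells was lost in 9 of 12 fits that left out 1 library, with edgeR adjusted p up to 0.164 without the quiescent knockdown of experiment 9, and it remained without the proliferating control of experiment 9, the quiescent control of experiment 9 or the quiescent knockdown of experiment 7. With the experiment term the edgeR adjusted p was 0.000294 and 0.00148.

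Epha1, at chr6:42358487-42373268 (minus strand), encodes the receptor after which the family was named. Its levels in experiments 5, 7 and 9 were 95.9, 107 and 141 CPM in proliferating control and 68.7, 74.1 and 78.2 CPM in quiescent control libraries. Knockdown cells had 78.8, 66.6 and 64.4 CPM when proliferating and 45.5, 50.3 and 42.5 CPM when quiescent. The 3 quiescent knockdown libraries were below all others, the 3 proliferating control libraries were above all others, and the remaining groups lay between and overlapped. Quiescence changed its log2 level by -0.63 (SE 0.15, edgeR adjusted p 0.0124) in control and -0.60 (SE 0.15, edgeR adjusted p 0.0177) in knockdown cells. The call in control cells was lost without the quiescent control of experiment 5 (edgeR adjusted p 0.0594). The call in knockdown cells was lost without the proliferating knockdown of experiment 5 (edgeR adjusted p 0.0541), the quiescent knockdown of experiment 5 (0.0573) or that of experiment 9 (0.0772).

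Epha1 also had the largest log2 fold change with knockdown among the 10 genes in both states. It was -0.71 (SE 0.15, 95% interval -1.03 to -0.38) in proliferating cells, with no overlap of the groups, as for 5.31% of all genes. In quiescent cells it was -0.68 (SE 0.15, 95% interval -1.003 to -0.351), again with no overlap, as for 19.1% of all genes. Knockdown minus control in log2 CPM was -0.28, -0.68 and -1.12 in experiments 5, 7 and 9 in proliferating cells and -0.59, -0.56 and -0.88 in quiescent cells, so the knockdown library was the lower one in 3 of 3 experiments in both states. Neither difference passed over all genes (edgeR adjusted p 0.705 and 0.0818). With the experiment term the quiescent difference passed (log2 fold change -0.67, edgeR adjusted p 0.0384) and the proliferating one did not (-0.70, edgeR adjusted p 0.553), while DESeq2 gave adjusted p of 0.0158 in proliferating and 0.00432 in quiescent cells. Without the proliferating control of experiment 9 the quiescent difference passed without the experiment term (edgeR adjusted p 0.0428). The knockdown effects in the states differed by 0.03 (95% interval -0.43 to 0.49, edgeR adjusted p 0.9997). Beside these values, the summed urothelial list, led by Krt8, was at 12380 to 19415 CPM in quiescent control libraries. In quiescent knockdown libraries it was at 21485 to 23410 CPM. Cdh1 and Epcam, also on that list, had lower means in quiescent knockdown than control (1303 against 1921 and 456 against 481 CPM). The Csf1r-led leukocyte list was higher in quiescent knockdown libraries without overlap, as given above. Mki67 overlapped between these groups and did not pass (log2 fold change 1.92, edgeR adjusted p 0.312). The part of these genes and lists in the Epha1 difference was not tested. The annotated exons of Epha1 share 236 bases (6.01%) with Zyx on the other strand, and the use of strand in counting is not given in the sources used here. Zyx had log2 fold changes of -0.24 with knockdown in proliferating and 0.08 in quiescent cells, and -0.25 with quiescence in control and 0.08 in knockdown cells, none past the threshold.

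Epha4, at chr1:77367185-77515088 (minus strand), encodes a receptor that binds ephrins of both classes. Control cells had 82.1, 105 and 99.8 CPM when proliferating and 66.0, 53.0 and 103 CPM when quiescent, in the order of experiments 5, 7 and 9. Knockdown cells had 89.9, 114 and 130 CPM when proliferating and 38.5, 65.2 and 61.9 CPM when quiescent. The control groups overlapped through experiment 9, where the level hardly moved, and the knockdown groups did not overlap. In control cells the log2 fold change with quiescence, -0.37 (SE 0.26), did not pass (edgeR adjusted p 0.335), and in knockdown cells Epha4 fell (log2 fold change -1.01 with SE 0.26, edgeR adjusted p 0.0209). The difference between these responses was -0.64 (95% interval -1.44 to 0.16) and did not pass (edgeR adjusted p 0.9997), so the responses were not shown to differ. The call in knockdown cells was lost without the proliferating knockdown of experiment 7 (edgeR adjusted p 0.0586) or 9 (0.0736), or the quiescent knockdown of experiment 5 (0.0747). With knockdown the log2 fold change was 0.22 (95% interval -0.34 to 0.79) in proliferating and -0.42 (-0.99 to 0.15) in quiescent cells. The quiescent value was -0.77, 0.30 and -0.73 in log2 CPM within experiments 5, 7 and 9, so experiment 7 had the opposite sign. It was -0.11 without the quiescent control of experiment 9 and -0.22 without the quiescent knockdown of experiment 5.

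**Figure D2:**
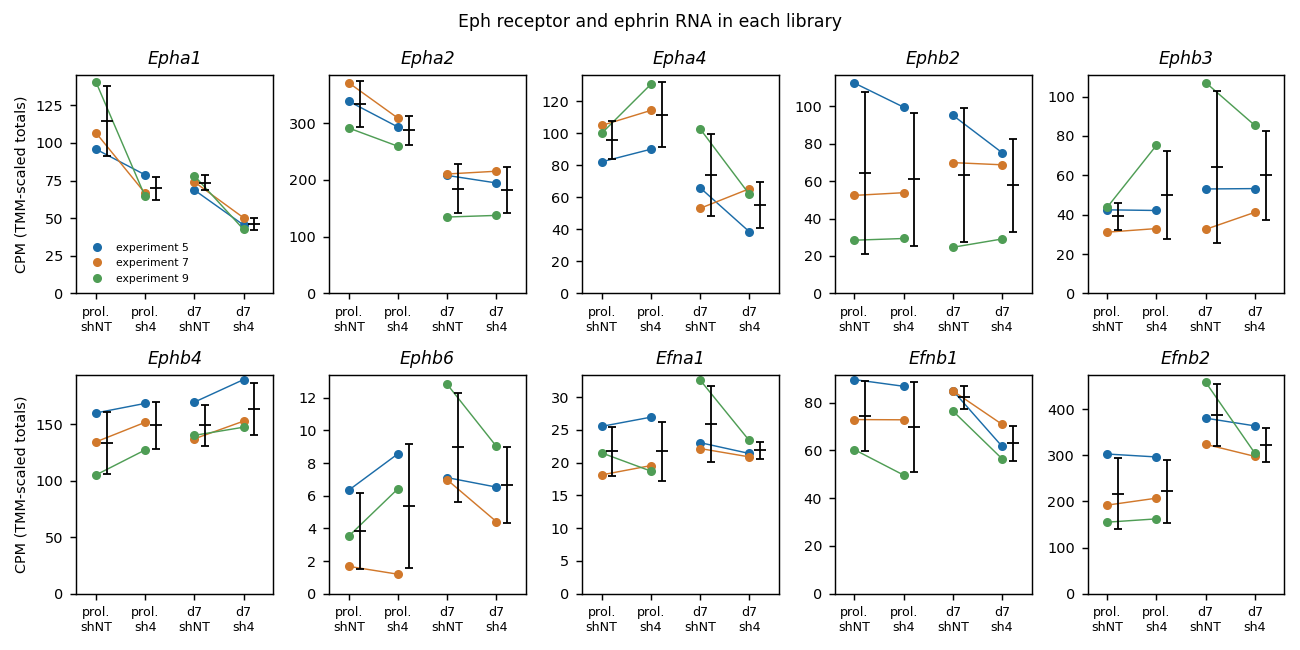
CPM of each of the 10 genes (linear axis from 0) in every library by group, with points coloured by experiment, lines joining control and knockdown of 1 experiment, and black bars for the mean and SD of 3 libraries. Epha1 is lower in knockdown than in control in every experiment and both states, Epha2 is lower in all quiescent libraries, and Ephb2 keeps the same order of experiments in all 4 groups.

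Among the EphB receptors no member passed the threshold in any comparison without the experiment term. Ephb4, at chr5:137350109-137378669 (plus strand), a receptor for ephrin-B2, was the most abundant of them. In experiments 5, 7 and 9 it was at 160, 134 and 105 CPM in proliferating control and 170, 137 and 140 CPM in quiescent control libraries. Knockdown cells had 169, 152 and 127 CPM when proliferating and 190, 153 and 147 CPM when quiescent. The knockdown library was the higher one in 3 of 3 experiments in both states, but the groups overlapped. The log2 fold change with knockdown was 0.16 (95% interval -0.22 to 0.55) in proliferating and 0.13 (-0.25 to 0.51) in quiescent cells (edgeR adjusted p 0.9998 and 0.837). With quiescence it was 0.16 (-0.22 to 0.54) in control and 0.13 (-0.25 to 0.51) in knockdown cells.

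Ephb2, at chr4:136647539-136835988 (minus strand), encodes a receptor for ephrin-B ligands that is known for positioning epithelial cells. Its level followed the experiment more than the groups: over the 4 libraries of an experiment it ran from 75.2 to 112 CPM in experiment 5, from 52.4 to 69.9 CPM in experiment 7 and from 24.6 to 29.3 CPM in experiment 9, with no overlap between experiments. Of the sum of squares of its log2 CPM over 12 libraries, 94.6% lay between experiments, 0.0107% between states and 0.0580% between hairpins, as a description. The log2 fold changes in the 4 comparisons lay between -0.13 and -0.03, and the interval for quiescence in control cells, from -1.37 to 1.31, shows how little the libraries could resolve without the experiment term. With that term the values lay between -0.04 and -0.01, and none passed.

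Ephb3, at chr16:21204755-21223305 (plus strand), encodes a further ephrin-B receptor. It was at 42.5, 31.1 and 43.8 CPM in proliferating control and 53.1, 32.5 and 107 CPM in quiescent control libraries of experiments 5, 7 and 9. Knockdown cells had 42.1, 32.9 and 75.3 CPM when proliferating and 53.3, 41.2 and 85.4 CPM when quiescent. Experiment 7 was lowest in every group, and the highest value, in experiment 9, set the mean of quiescent control. With quiescence in control cells Ephb3 had a log2 fold change of 0.72 (95% interval -0.23 to 1.66, edgeR adjusted p 0.262), and with the experiment term it passed at 0.56 (edgeR adjusted p 0.0415). That call held in 5 of 12 fits with the experiment term that left out 1 library, an alternative chosen after seeing the data. In knockdown cells the log2 fold change with quiescence was 0.26 (95% interval -0.68 to 1.19).

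Ephb6, at chr6:41605482-41620509 (plus strand), had the fewest reads of the 10 genes, 20 to 215 counts in a library. Its levels were 6.34, 1.67 and 3.52 CPM in proliferating control and 7.11, 6.97 and 12.8 CPM in quiescent control libraries of experiments 5, 7 and 9. In knockdown cells they were 8.57, 1.19 and 6.43 CPM when proliferating and 6.53, 4.41 and 9.02 CPM when quiescent. The control groups did not overlap, and experiment 5 changed least with the state. The log2 fold change in control cells was 1.22 (95% interval -0.16 to 2.60, edgeR adjusted p 0.194), and with the experiment term it passed at 1.37 (edgeR adjusted p 0.0320). That call held in 8 of 12 fits with the experiment term that left out 1 library. With knockdown the values, 0.49 (95% interval -0.89 to 1.87) and -0.43 (-1.79 to 0.92), were not resolved from 0 at this depth and spread.

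Efnb2, at chr8:8617434-8661242 (minus strand), encodes ephrin-B2, the ligand of Ephb4 and other EphB receptors. It was at 303, 192 and 155 CPM in proliferating control and 380, 324 and 458 CPM in quiescent control libraries of experiments 5, 7 and 9. Knockdown cells had 296, 207 and 162 CPM when proliferating and 364, 298 and 304 CPM when quiescent. Every quiescent control library was above every proliferating control library, and the order of experiments was not the same in both states. Efnb2 rose with quiescence by 0.84 on the log2 scale in control cells (SE 0.27, edgeR adjusted p 0.0461), which is 1.79-fold higher, and 0.33, 0.75 and 1.56 in experiments 5, 7 and 9. In knockdown cells it was 0.54 (SE 0.27, 95% interval -0.04 to 1.12, edgeR adjusted p 0.182), with no overlap of the groups and a higher quiescent level in 3 of 3 experiments. The difference between the responses was -0.30 (95% interval -1.12 to 0.52, edgeR adjusted p 0.9997). The call in control cells was lost in a fit to only those 2 groups (edgeR adjusted p 0.0760) and in 8 of 12 fits that left out 1 library. Those libraries were the proliferating control of experiment 7 (edgeR adjusted p 0.148) or 9 (0.154), the proliferating knockdown of experiment 7 (0.0615), the quiescent control of experiment 5 (0.0925) or 9 (0.136), and the quiescent knockdown of experiment 5 (0.0585), 7 (0.0562) or 9 (0.0628). The log2 fold change in these 8 fits lay between 0.65 and 0.87, and 4 of the 8 libraries are not in the groups compared. The call held with the experiment term (log2 fold change 0.90, edgeR adjusted p 0.00726) and with DESeq2 (adjusted p 0.0110).

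Efnb1, at chrX:99136130-99148991 (plus strand), encodes ephrin-B1. It was at 89.7, 73.0 and 60.3 CPM in proliferating control and 85.1, 85.0 and 76.6 CPM in quiescent control libraries of experiments 5, 7 and 9. Knockdown cells had 86.9, 72.9 and 49.7 CPM when proliferating and 61.7, 71.0 and 56.5 CPM when quiescent. The quiescent knockdown libraries lay below the quiescent control libraries without overlap, whereas the proliferating groups overlapped. The log2 fold change with knockdown in quiescent cells was -0.38 (95% interval -0.82 to 0.05) and did not pass without the experiment term (edgeR adjusted p 0.491) or with it (0.139). In proliferating cells it was -0.09 (95% interval -0.52 to 0.34). With quiescence it was 0.15 (95% interval -0.29 to 0.58) in control and -0.15 (-0.58 to 0.29) in knockdown cells.

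Efna1, at chr3:89271733-89281142 (minus strand), encodes ephrin-A1, the main ligand of EphA2. Its levels ran from 18.1 to 25.5 CPM in proliferating control, 18.7 to 26.9 CPM in proliferating knockdown, 22.1 to 32.6 CPM in quiescent control and 20.9 to 23.4 CPM in quiescent knockdown libraries. All 4 groups overlapped. The log2 fold changes with quiescence were 0.26 (95% interval -0.18 to 0.69) in control and 0.01 (-0.43 to 0.45) in knockdown cells. With knockdown they were 0.00 (95% interval -0.44 to 0.44) in proliferating and -0.25 (-0.68 to 0.19) in quiescent cells. No change of this ligand was called in either state comparison, where Epha2 fell.

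**Figure D3:**
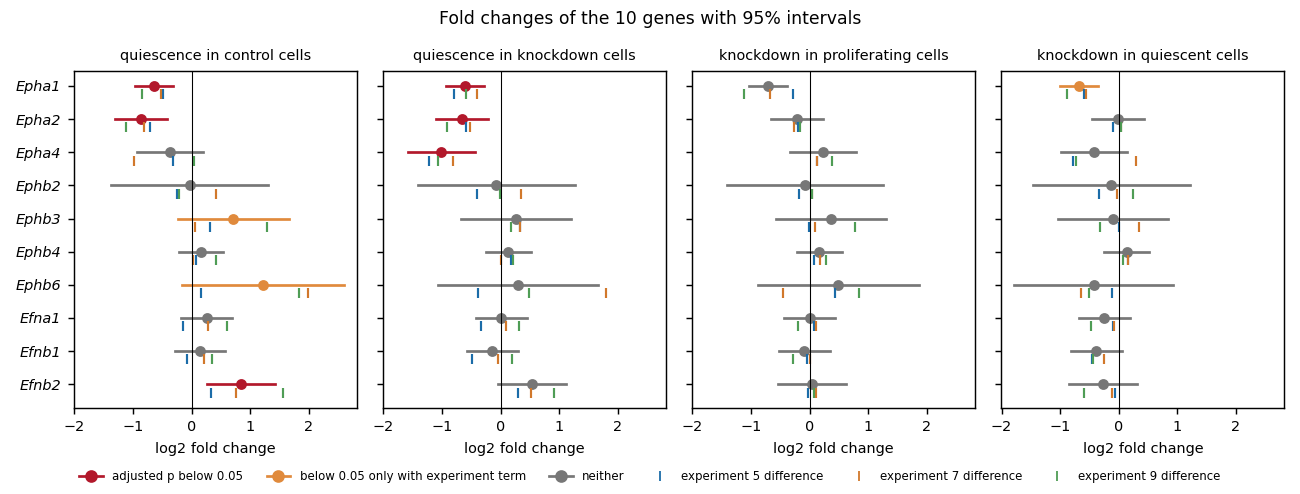
Log2 fold change (horizontal axis) of each gene in the 4 comparisons, where dots and bars give the edgeR estimate and its 95% interval and coloured ticks the difference in log2 CPM within each experiment. Red marks the 3 genes called in each state comparison, orange those called only with the experiment term, such as Epha1 with knockdown in quiescent cells.

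For the knockdown, 0 of the 10 genes passed in proliferating cells, where 0.0242% of all genes did. Only 1 gene, Epha1, had an unadjusted edgeR p under 0.05 with or without the experiment term, where 645 and 228 of 12406 genes had one. DESeq2 called Epha1 among 12 genes. In quiescent cells 0 of 10 passed, where 0.435% of all genes did (0.153% higher and 0.282% lower), and 1 was under an unadjusted edgeR p of 0.05, where 1489 of 12406 genes were. With the experiment term 3 were (Epha1, Efnb1 and Epha4), where 2527 of all genes were. After adjustment 1 of 10 passed with that term, Epha1, where 3.55% of all genes did (1.59% higher and 1.96% lower). DESeq2 called 1 of the 10, where it called 390 genes in all. The members had a negative log2 fold change in quiescent cells in 9 of 10 cases, against 5898 of 12406 genes, and their median was -0.26 beside 0.02 over all genes. Over the 15 tested genes of the whole family, 10 were negative and 5 positive, with a median of -0.13. In proliferating cells the median of the members was 0.02 beside -0.0022, and 4 of the 10 were negative. The interaction, the knockdown effect in quiescent minus that in proliferating cells, had 0 of 10 members and 0% of all genes past the edgeR threshold. No member had an unadjusted edgeR p under 0.05 for it, where 219 of 12406 genes had one. With the experiment term 1 member did, beside 590 genes. DESeq2 called 0 members, where it called 6 genes in all. The median of the members was -0.27 beside 0.0091 over all genes. The knockdown comparison in quiescent cells and the quiescence comparison in control cells share the quiescent control libraries.

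The experiment was a large part of the variation in several members. Its share of the sum of squares of log2 CPM was 69.3% in Ephb3, 63.6% in Ephb4, 46.6% in Efnb1 and 43.6% in Ephb6, in addition to the 94.6% in Ephb2. The state took the largest share in Epha2 (73.2%), Efnb2 (58.1%) and Epha4 (54.0%). Epha1 stood apart from these in having 50.9% between hairpins, 39.9% between states and 0.561% between experiments. In Efna1 no term was large, and 52.7% was left over. These shares describe 12 libraries and were not tested.

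**Figure D4:**
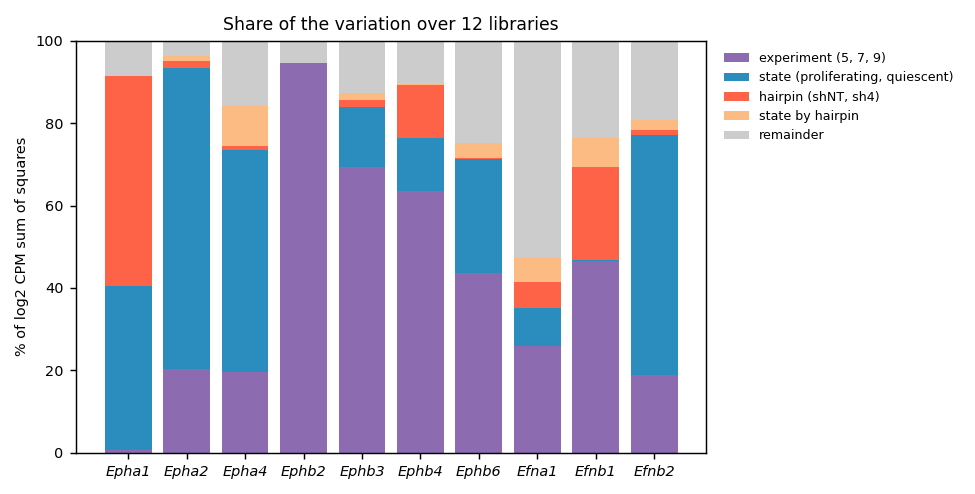
Stacked bars give, for each gene, the percentage of the sum of squares of log2 CPM over 12 libraries that lay between experiments, states and hairpins, in the state-by-hairpin term and in the remainder. The hairpin share is largest in Epha1 at 50.9%, and the experiment share in Ephb2 at 94.6%.

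The genes outside the family whose pattern over the 12 libraries was closest were found for the 4 members called in a state comparison without the experiment term, by the root mean square difference of log2 CPM centred on each gene. For Epha1 these were Pdap1 (0.13) and Mrpl12 (0.18), where the spread of Epha1 itself was 0.48 on the same scale. For Epha2 they were Casp8ap2 (0.13) and Phf6 (0.15), with a spread of 0.45. Efnb2 was closest to Mvp (0.10) and Calcoco1 (0.15), with a spread of 0.48. Epha4 had no neighbour as close, with Pi4k2b at 0.21 and Asap1 at 0.22 for a spread of 0.49.

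Among the remaining family genes Efna5 fell with quiescence in knockdown cells (log2 fold change -0.77, SE 0.17, edgeR adjusted p 0.0109) and did not pass in control cells (-0.26, edgeR adjusted p 0.300). The difference between these responses, -0.51, did not pass (edgeR adjusted p 0.9997). Efna4 had log2 fold changes with quiescence of 0.52 in control and 0.46 in knockdown cells, which passed only with the experiment term (edgeR adjusted p 0.0161 and 0.0336). Efna3 did so in knockdown cells (0.99, edgeR adjusted p 0.0701 without and 0.0213 with the term), and Efnb3 passed in no comparison. Epha7 was at 5.45 ± 0.806 CPM in quiescent control and 10.2 ± 2.29 CPM in quiescent knockdown cells (SD, n = 3), with no overlap, and its log2 fold change of 0.90 did not pass (edgeR adjusted p 0.353). With knockdown in proliferating cells its log2 fold change was 0.72 and did not pass either (edgeR adjusted p 0.9998). Both values were larger in size than those of Epha1 and of the opposite sign. Efna3 and Efna4 share 14.1% and 10.5% of their annotated exon bases with antisense genes.

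Signalling partners of the receptors and ephrins were taken from a list that included adaptors and kinases, phosphatases and ligases, PDZ and SAM domain partners and shedding proteases. Of 57 in the table, 52 were tested. With quiescence in control cells 5 fell and 1 rose, a smaller share than the 20.0% called over all genes (11.7% lower and 8.33% higher), and the median of the list was 0.05. The called partners are named as single genes. Those that fell most were Samd5 (log2 fold change -2.32, edgeR adjusted p 0.0109), a SAM domain protein, Ptk2 (-0.77, edgeR adjusted p 0.00547), focal adhesion kinase, Acp1 (-0.67, edgeR adjusted p 0.00524), a tyrosine phosphatase, and Rac1 (-0.47, edgeR adjusted p 0.0202). Inppl1, a lipid phosphatase that binds EphA2, rose by 0.50 (edgeR adjusted p 0.0207). In knockdown cells 7 fell and 0 rose, again a smaller share than the 18.4% of all genes (10.8% lower and 7.59% higher). With knockdown 0 of 52 passed in either state, where 0.0242% of all genes did in proliferating and 0.435% in quiescent cells. DESeq2 called 0 partners in proliferating and 4 in quiescent cells, where it called 12 and 390 genes in all. An unadjusted edgeR p under 0.05 was found for 0 partners in proliferating cells, where 228 of 12406 genes had one, and for 7 partners in quiescent cells, where 1489 of 12406 had one. With the experiment term the latter counts were 11 partners and 2527 genes. When the experiment was a term, 5 passed in quiescent knockdown against control, beside 3.55% of all genes. Of these Adam10, a protease that sheds ephrins, had a log2 fold change of -1.11 with the term (edgeR adjusted p 0.209 without and 0.0232 with it). In the same fit Ptpn13 was at -0.70, Vav3 at -1.24, Pard6b at -0.62 and Arhgef19 at 1.34.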

How the data were processed

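RNA sequencing counts of 12 NU1 libraries were used. The authors deposited unnormalised integer counts by gene symbol. The submitters' processing notes list Bowtie, TopHat, HTSeq, DESeq2 and mm10, with no versions or roles; annotation and strand setting are not given in the sources used here. Per the labels' protocols, libraries were stranded and polyA-selected, and 0 ERCC rows are in the table.

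The analysis ran in edgeR 4.0.16 under R 4.3.3: filterByExpr with a minimum count of 10, TMM, group means fitted to all 12 libraries by glmQLFit, glmQLFTest, and Benjamini-Hochberg adjustment over 12406 genes at 0.05. The procedure was tested on simulated counts that, unlike these data, held no effect of the experiment. Log2 CPM used a prior count of 2. Replicates differed by more than sampling noise (chi-square per degree of freedom 36.6 to 99.7). Experiment numbers pair the libraries, per the labels' batches, and deviations from group means correlated between same-numbered libraries (mean r 0.526, 18 pairs). The alternatives were the replicate block, median-of-ratios factors, DESeq2 1.42.0, other filters (none, a mean count of 50), fewer groups and leaving out each library.

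Positions and exon lengths are from GENCODE M21 (GRCm38, the build named mm10). Named genes are the 10 members, tested family genes, the partners with the largest called changes with quiescence in control cells (up to 4 each way) or called with knockdown, and the 2 nearest patterns of each called member. Partners called only with the replicate block were named after their values were seen. Members and lists were chosen with earlier results of these data known.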

Additional observations from a re-analysis of the deposited data

How the results depend on the processing

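The direction and side of the threshold of the 10 genes' log2 fold changes held in 280 values from alternatives that kept every library of the groups compared. The other 10 were 6 changed calls (Ephb3, Ephb6 and Epha1 with the replicate block, Epha1 in both states with DESeq2, and Efnb2 with only the groups compared) and 4 sign changes near 0: the log2 fold change of Efna1, quiescence in knockdown cells, was -0.00487 with no filter, and the log2 fold change of Efna1, knockdown in proliferating cells, was -0.00506 with median-of-ratios factors, -0.00512 with DESeq2 and -0.00433 with no filter; the cause was not tested. Called members with quiescence in control cells numbered 5 with the replicate block in place of 3, and 1 to 3 when 1 library was left out (1 without the proliferating control of experiment 7 or the quiescent control of experiment 5), or 3 to 5 under the block. For quiescence in knockdown cells they numbered 0 to 3, with 0 without the quiescent knockdown of experiment 5 and 1 without any 1 proliferating knockdown or the quiescent knockdown of experiment 9. For knockdown in proliferating cells DESeq2 called 1 member in place of 0. For knockdown in quiescent cells the block and DESeq2 each called 1 in place of 0, and leaving out 1 library gave 0 to 1, also under the block. Under the block with 1 library left out, Epha1 passed there in 5 of 12 fits. Fits that leave 1 library out assume that a smaller group varies like the others. The block changed no other call of a member.

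When 1 library was left out, signs changed for these uncalled log2 fold changes. With quiescence in control cells Ephb2 ran from -0.43 to 0.65. With quiescence in knockdown cells Ephb2 ran from -0.41 to 0.47, Efnb1 from -0.34 to 0.0402, Ephb6 from -0.17 to 0.80, Efna1 from -0.0865 to 0.19 and Ephb3 from -0.0840 to 0.68. With knockdown in proliferating cells Ephb2 ran from -0.63 to 0.59, Efnb1 from -0.28 to 0.0975, Efna1 from -0.18 to 0.13, Efnb2 from -0.23 to 0.35, Ephb6 from -0.0147 to 1.05 and Ephb3 from -0.0679 to 0.58. With knockdown in quiescent cells Epha2 ran from -0.20 to 0.15, Ephb2 from -0.52 to 0.28 and Ephb3 from -0.44 to 0.48. For the interaction Ephb2 ran from -0.72 to 0.50, Epha1 from -0.14 to 0.14, Ephb4 from -0.19 to 0.11 and Ephb3 from -0.80 to 0.13.

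Over all genes (genes changed, quiescence in control cells), edgeR called 2481 genes, 4374 with the block, 1582 with only the groups compared and 1394 to 3078 with 1 library left out. Quiescence in knockdown cells called 2279, 4096 with the block and 1186 to 2408 with 1 library left out. Knockdown called 3 genes in proliferating cells (12 with DESeq2, 1 with only the groups compared, 1 to 3 with 1 library left out) and 54 in quiescent cells (440 with the block, 390 with DESeq2, 5 to 64 with 1 library left out). The interaction called 0, and 6 with DESeq2. Depth limits Ephb6 most, which had as few as 20 counts.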
